A study of Mus musculus with 42 samples.

Results

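The comparison set 8 macrophage-rich mouse mammary tumours against 8 macrophage-poor ones, out of 21 tumours in the series. These 16 were the tumours other than 644, 646, 647, 649 and 673, and they were ranked by the mean level of Tyrobp, Fcer1g, Ctss, Laptm5, C1qa and Cd68. The upper 8 were called macrophage-rich and the lower 8 macrophage-poor, so the names rest on these 6 genes and not on a count of cells. A level is the log2 ratio of tumour RNA to reference RNA, after subtraction of the median of its array, averaged over the 2 arrays of a tumour. A difference is always macrophage-rich minus macrophage-poor on this log2 scale, where 1 is a doubling.

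The tumours descended from mammary neoplasms of mice carrying a c-Myc transgene, strain FVB/N-Tg(WapMyc)212Bri, in which the promoter of the milk protein gene Wap drives c-Myc in mammary epithelium. All 16 tumours shared this origin, and the labels named no treatment, age or control tissue. Selection in living mice had been used to separate glandular, solid and spindle-cell growth, but the labels gave each array a tumour number and no growth form. RNA from each tumour was hybridised on 2 arrays with the dyes exchanged, against a universal mouse reference RNA, and the tumour was the unit of every comparison. The labels did not settle which array carried which dye. Arrays were turned so that Krt8, Hba-a1 and Dbi were positive. If that choice were wrong for all arrays, rich and poor would exchange names throughout and every level would change sign. Each difference of rich minus poor would keep its sign and size.

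Macrophages are phagocytic cells that arise from embryonic precursors or blood monocytes and populate most solid tumours. In mammary tumours of mice they clear dying cells and secrete growth factors and proteases, and they are found along vessels and at the tumour edge. Tyrobp and Fcer1g encode adaptors that carry the signals of activating and Fc receptors, Ctss a lysosomal protease used in antigen presentation, Laptm5 a lysosomal membrane protein of leukocytes, C1qa a chain of complement component C1q, and Cd68 a lysosomal glycoprotein. In RNA from whole tissue, fewer macrophages and less of these RNAs per macrophage cannot be told apart.

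In the macrophage-rich group the 6 ranking genes had a mean level of -0.83 (tumour 653) up to 0.59 (tumour 641). In the macrophage-poor group it was -1.88 (tumour 663) up to -0.86 (tumour 660). The tumours formed a continuous series with no gap at the cut, since tumour 653 stood just inside the rich group at -0.83 and tumour 660 just outside at -0.86. The 5 tumours that were not ranked all lay above it, with mean levels of 1.29 in tumour 673 to 2.13 in tumour 646, so the macrophage-rich group was rich only among the 16. Of the 6 genes, Tyrobp had levels of -0.15 to 1.34 in the rich tumours and of -1.48 to -0.45 in the poor ones. It was the only one of the 6 whose groups did not overlap. The differences that the ranking built in were 1.60 for Cd68, 1.46 for Tyrobp, 1.25 for Fcer1g, 1.15 for Ctss, 0.70 for Laptm5 and 0.68 for C1qa, and they are given as a description with no test.

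**Figure D1:**
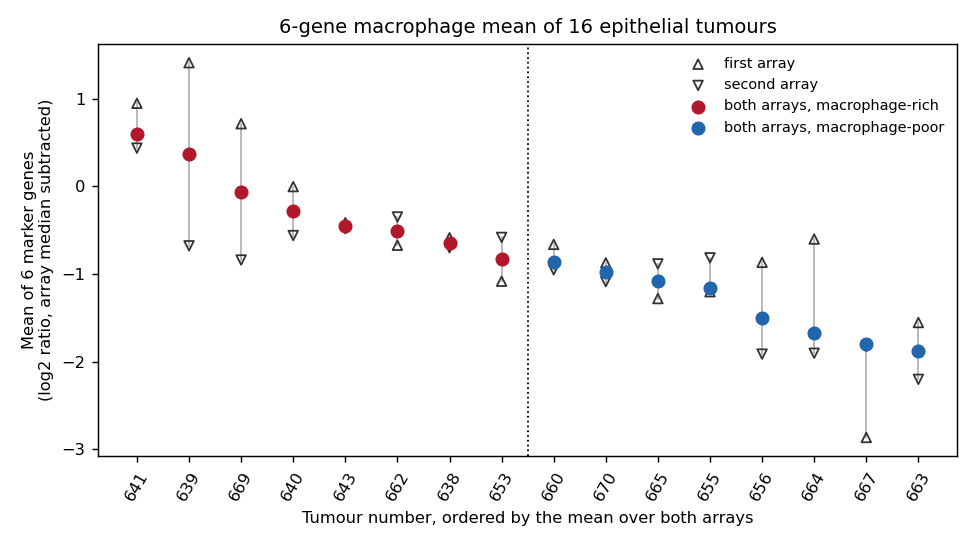
Mean log2 level of the 6 ranking genes (vertical axis) in each of the 16 tumours (horizontal axis), ordered from highest to lowest. Filled points are the mean over both arrays, triangles are the mean on each single array, and the dotted line is the cut between tumour 653 at -0.83 and tumour 660 at -0.86; the arrays of tumours 639, 664 and 669 lie far apart.

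The 2 arrays of a tumour did not always rank it alike. The array with the higher deposited mean of Krt8, Hba-a1 and Dbi is called the first array here, and the other the second. Ranked on the first arrays alone and on the second arrays alone, 10 of 16 tumours fell in the same group, 5 rich (638, 639, 640, 641 and 643) and 5 poor (656, 663, 665, 667 and 670), while 6 changed group. Tumours 660, 664 and 669 were rich on the first arrays only, and tumours 653, 655 and 662 on the second arrays only. Across the 16 tumours the 6-gene means of both arrays had a Pearson r of 0.591 and a Spearman rho of 0.559, and Pearson r was 0.58 without tumours 639 and 667, the 2 farthest from the median. These values are given as a description of how far the arrays of a tumour ranked alike.

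Other features of the samples moved with the grouping. All 5 tumours numbered 638 to 643 were macrophage-rich. Of the 3 slide runs read from the running numbers in the array titles, which the labels do not call a batch, run 1 held 3 rich tumours and no poor one, run 2 held 2 rich and 3 poor, and run 3 held 3 rich and 2 poor, while 3 poor tumours had an array in each of runs 2 and 3. An array gave 13079 to 20722 measured probes in the rich group, with a median of 17947.5, and 8600 to 20900 in the poor group, with a median of 16301.5, of 22800 printed. The spread within a group was narrower among the rich tumours, with a median standard deviation over genes of 0.77 against 1.03. The part of these features in the differences below was not tested, beyond the values given within runs and without tumours 638 to 643. Without tumours 638 to 643, 3 rich tumours (653, 662 and 669) stood against 8 poor ones. Values within run 2 compared 2 rich tumours with 6 poor, and values within run 3 compared 3 rich with 5 poor. The 3 poor tumours with an array in each of these runs entered both, with 1 array each.

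Because the ranking and the levels came from the same arrays, the differences between the groups as ranked were only described. For a test, tumours were grouped by the 6-gene mean of one array and compared on the other array with limma, in both directions. The same tumours and RNA stand behind both fits, so a second fit repeats the hybridisation and not the tumours. No gene passed an adjusted p of 0.05 in limma's fit on the second arrays, where 0 of 8360 genes other than the 6 were called (0%), against 564 (6.75%) at an unadjusted p under 0.05, 282 of them with a positive difference (3.37%) and 282 with a negative one (3.37%). None passed in limma's fit on the first arrays either, where 0 of 10349 were called (0%), against 531 (5.13%) at an unadjusted p under 0.05, 187 with a positive difference (1.81%) and 344 with a negative one (3.32%). The lowest adjusted p in limma was 0.139 on the second arrays, for Prps1l1, and 0.902 on the first arrays. With the 6-gene mean as a slope in place of groups, a setting added after seeing the data, limma again called 0 genes in either fit, with lowest adjusted p-values of 0.273 and 0.0973.

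Grouping and testing on the same arrays gave another picture. Limma then had 2062 of 13653 genes (15.1%) at an unadjusted p under 0.05, still with 0 calls. Among the 3555 genes with a value on all 32 arrays, a setting added after seeing the data, it called 106 as higher (2.98%) and 27 as lower (0.759%) in macrophage-rich tumours, and 1016 (28.6%) had an unadjusted p under 0.05. With values from the array that had not set the groups, the same gene filter gave 0 calls in limma on each array set, with 171 and 146 genes at an unadjusted p under 0.05. The calls made on shared arrays are therefore not used below.

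The 6 ranking genes themselves did not pass on the array that had not ranked the tumours. Tyrobp differed by 0.81 ± 0.41 (SE) on the second arrays, with an adjusted p of 0.735 in limma, and by 1.12 ± 0.53 (SE) on the first arrays, with an adjusted p of 0.902. Ctss had a difference of 0.42 ± 0.33 on the second arrays and of 1.29 ± 0.67 on the first, and Fcer1g of 0.31 ± 0.45 and 1.07 ± 0.67. Laptm5 had differences of opposite sign, 0.54 ± 0.55 on the second arrays and -0.23 ± 0.42 on the first. For 5 of the 6 the difference was positive on both array sets, and limma's adjusted p was at least 0.735 for all 6.

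**Figure D2:**
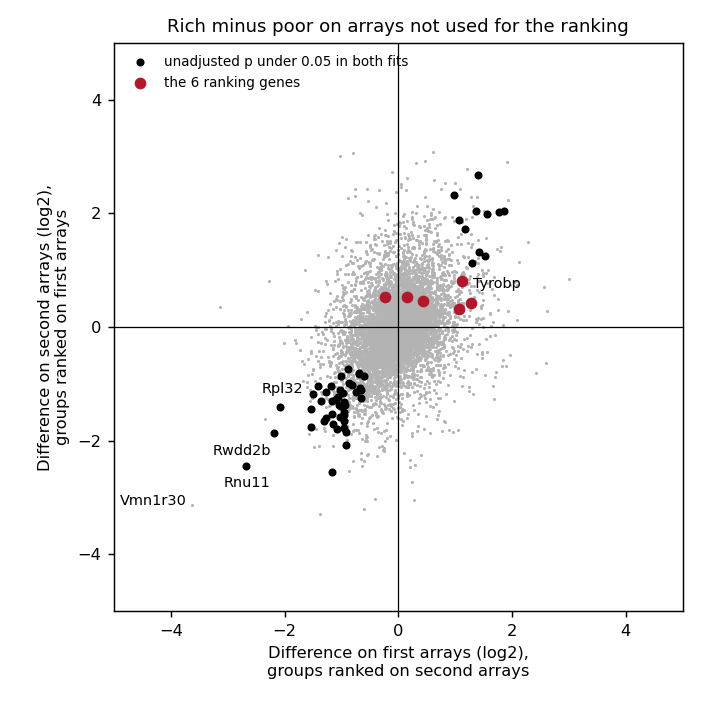
Macrophage-rich minus macrophage-poor difference (log2) of 7894 genes tested in both fits, on the first arrays with groups ranked on the second (horizontal axis) and on the second arrays with groups ranked on the first (vertical axis). Grey points are all genes, black points the 11 genes with positive and 43 with negative differences at an unadjusted p under 0.05 in both fits, and red points the 6 ranking genes, 5 of which lie above and to the right of 0.

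Of the 7894 genes tested in both fits, 2485 (31.5%) had a positive difference in each and 2516 (31.9%) a negative one. Described over both arrays with the groups as ranked, 8256 of 13653 genes (60.5%) had a positive difference, 1274 (9.33%) one of at least 1 and 1116 (8.17%) one of at most -1. The median difference over all genes was 0.18, and it was 0.48 before the array medians were subtracted, so list medians are best read against 0.18. In 33 genes (0.242%) every rich tumour lay above every poor one, and in 5 genes (0.0366%) below. Across the 25 other gene lists, which were chosen with earlier results of these data known, limma called 0 members on either array set.

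The genes nearest in function to the ranking set are those for complement, scavenger and Fc receptors. Of 20 measured members 15 had a positive difference, 4 of at least 1 and 1 of at most -1, with a median of 0.42 against 0.18 for all genes. On the other array the list's median difference was -0.30 over 11 genes on the second arrays and 0.07 over 16 on the first. C1qc, the chain that completes C1q with C1qa, had levels of 0.75, 2.69 and 3.56 (lowest, median and highest) in the 8 macrophage-rich tumours and of -2.59, 0.98 and 3.54 in the 8 macrophage-poor tumours with a value. The groups overlapped, with poor tumour 667 at the top of the rich range and rich tumours 662 and 653 among the poor ones. The difference of C1qc was 1.67 over both arrays, and limma gave 1.53 ± 0.85 (SE) on the second arrays, adjusted p = 0.766, with too few values on the first arrays.

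Fcgr3, a low-affinity receptor for antibody complexes, had levels of -0.61, 1.78 and 4.47 (lowest, median and highest) in the 8 macrophage-rich tumours and of -1.10, 0.37 and 1.49 in the 7 macrophage-poor tumours with a value. Poor tumour 660 lay above 3 of the rich tumours, and rich tumour 662 lay below 5 of the 7 poor ones. The difference of Fcgr3 was 1.54 over both arrays, and limma gave 0.80 ± 0.57 (SE) on the second arrays, adjusted p = 0.826, and 0.94 ± 1.07 (SE) on the first arrays, adjusted p = 0.942. Msr1, the class A scavenger receptor, differed by 1.19 over both arrays, but by -0.30 ± 0.69 (SE) on the second arrays and by 1.42 ± 0.63 (SE) on the first. Clec4d, a C-type lectin of myeloid cells, went the other way with a difference of -1.05, and poor tumour 656 held the highest level of all, 2.42. Without poor tumour 656 the differences over both arrays were 0.72 for Msr1 and -0.54 for Clec4d.

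The promoters of Ctss and C1qc, from 250 bases before to 50 after the start, are printed because they carried the motif GAGGAAGT, a form of the purine-rich site bound by PU.1, the myeloid transcription factor encoded by Spi1. Both strands were searched, and the reverse form ACTTCCTC is in capitals. The sequences are from RefSeq, build GRCm38.p6, at chr3:95526536-95526835 on the plus strand for Ctss and chr4:136892865-136893164 on the minus strand for C1qc, each read 5′ to 3′ along its gene.
Ctss: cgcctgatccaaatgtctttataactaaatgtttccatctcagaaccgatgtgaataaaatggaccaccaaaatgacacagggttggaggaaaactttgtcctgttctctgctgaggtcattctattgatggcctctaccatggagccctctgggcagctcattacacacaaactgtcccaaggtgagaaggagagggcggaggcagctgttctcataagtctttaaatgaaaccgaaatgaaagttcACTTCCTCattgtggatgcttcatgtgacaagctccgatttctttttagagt
C1qc: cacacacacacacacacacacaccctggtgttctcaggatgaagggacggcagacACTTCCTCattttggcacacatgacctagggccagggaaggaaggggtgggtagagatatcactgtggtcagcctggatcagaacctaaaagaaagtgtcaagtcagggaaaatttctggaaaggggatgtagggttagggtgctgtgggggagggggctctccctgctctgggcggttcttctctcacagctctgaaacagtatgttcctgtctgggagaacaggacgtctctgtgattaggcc
Counted from the gene's start, the match began at base -2 in Ctss and at base -195 in C1qc. It occurred in 1052 of all 32851 promoters in the table (3.2%), in 1 of 4 ranking genes that had an entry, in 1 of 21 promoters of the complement list (4.76%) and in 6 of 42 of the myeloid list (14.3%). A match describes these letters only, and Tyrobp and C1qa had no entry in the table.

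Genes of myeloid identity and signalling, the widest leukocyte list, had a median difference of 0.14, against 0.18 for all genes. Of 39 measured members 22 had a positive difference, 7 of at least 1 and 1 of at most -1, where 9.33% and 8.17% of all genes had differences of these sizes. On the other array, 10 of 20 members tested in both fits had a positive difference in each and 4 a negative one, against 31.5% and 31.9% of all genes. Sirpa, an inhibitory receptor that binds CD47, had levels of -0.59, 0.03 and 1.07 (lowest, median and highest) in the 8 macrophage-rich tumours and of -3.18, -1.12 and 0.13 in the 8 macrophage-poor tumours with a value. Only poor tumour 656 lay within the rich range. The difference of Sirpa was 1.57 over both arrays, and limma gave 0.49 ± 0.81 (SE) on the second arrays, adjusted p = 0.95, and 0.70 ± 0.45 (SE) on the first arrays, adjusted p = 0.906.

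Btk, a kinase of B cells and myeloid cells, differed by 1.75, with rich levels of -0.86 to 0.92 and poor levels of -4.29 to 0.28 in the 6 poor tumours measured. On the first arrays limma gave it a difference of 1.54 ± 0.60 (SE) with an adjusted p of 0.902. Lcp1, an actin-bundling protein of leukocytes, differed by 1.27 over both arrays. In limma the difference of Lcp1 was 0.565 ± 0.726 (SE) on the second arrays and 0.263 ± 0.618 (SE) on the first. With the groups as ranked it was 0.08 within slide run 2, 1.84 within run 3 and 0.42 without tumours 638 to 643. Poor tumour 656 lay above all rich tumours, and poor tumours 655, 664, 665, 667 and 670 lay within their range of -1.65 to 1.08. Plek, a substrate of protein kinase C in blood cells, had a negative difference of -1.18 that turned to 0.46 within slide run 2.

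Lysosomal genes were more often on the rich side. Of 30 measured members 23 had a positive difference, 3 of at least 1 and 1 of at most -1, and the median was 0.40. On the other array the median was 0.18 over 25 genes on the second arrays and 0.21 over 29 on the first, 13 of 25 members had a positive difference in each fit and 2 a negative one in each. Over all genes tested in both fits these shares were 31.5% and 31.9%. The list's markers are not specific to macrophages, since all cells have lysosomes.

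Acp5, an acid phosphatase of macrophages and osteoclasts, had levels of 1.03, 2.88 and 4.77 (lowest, median and highest) in the 8 macrophage-rich tumours and of -0.62, 1.29 and 2.70 in the 8 macrophage-poor tumours with a value. The highest levels were in rich tumours 639 and 669, and 5 of the 8 poor tumours lay between rich tumours 662 and 638. The difference of Acp5 was 1.71 over both arrays, and limma gave 0.66 ± 0.61 (SE) on the second arrays, adjusted p = 0.865, and 0.42 ± 1.01 (SE) on the first arrays, adjusted p = 0.967. Cln3, a lysosomal membrane protein, differed by 1.21, with levels of 0.28 to 2.16 in the rich and of -0.72 to 0.72 in the poor tumours. Gusb, the beta-glucuronidase of lysosomes, was the list's only member whose groups did not overlap, with levels of -1.13 to -0.77 in the rich and of -3.00 to -1.19 in the poor tumours. It was singled out after its values were seen, and its difference of 0.79 over both arrays was 0.25 ± 0.36 (SE) on the second arrays, with an adjusted p of 0.94 in limma, and 0.48 ± 0.35 (SE) on the first.

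The 4 measured NADPH oxidase genes, which make the oxidative burst of phagocytes, were split. Cyba and Ncf4 had positive differences of 0.64 and 0.30, and Ncf1 and Cybb negative ones of -0.97 and -0.23. Without poor tumour 660 the difference of Ncf1 was -0.30 and that of Cyba 0.43, and that of Cybb turned to 0.16 without rich tumour 638 and to 0.01 without poor tumour 667. None of the 3 tested in both fits had a positive difference in each.

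**Figure D3:**
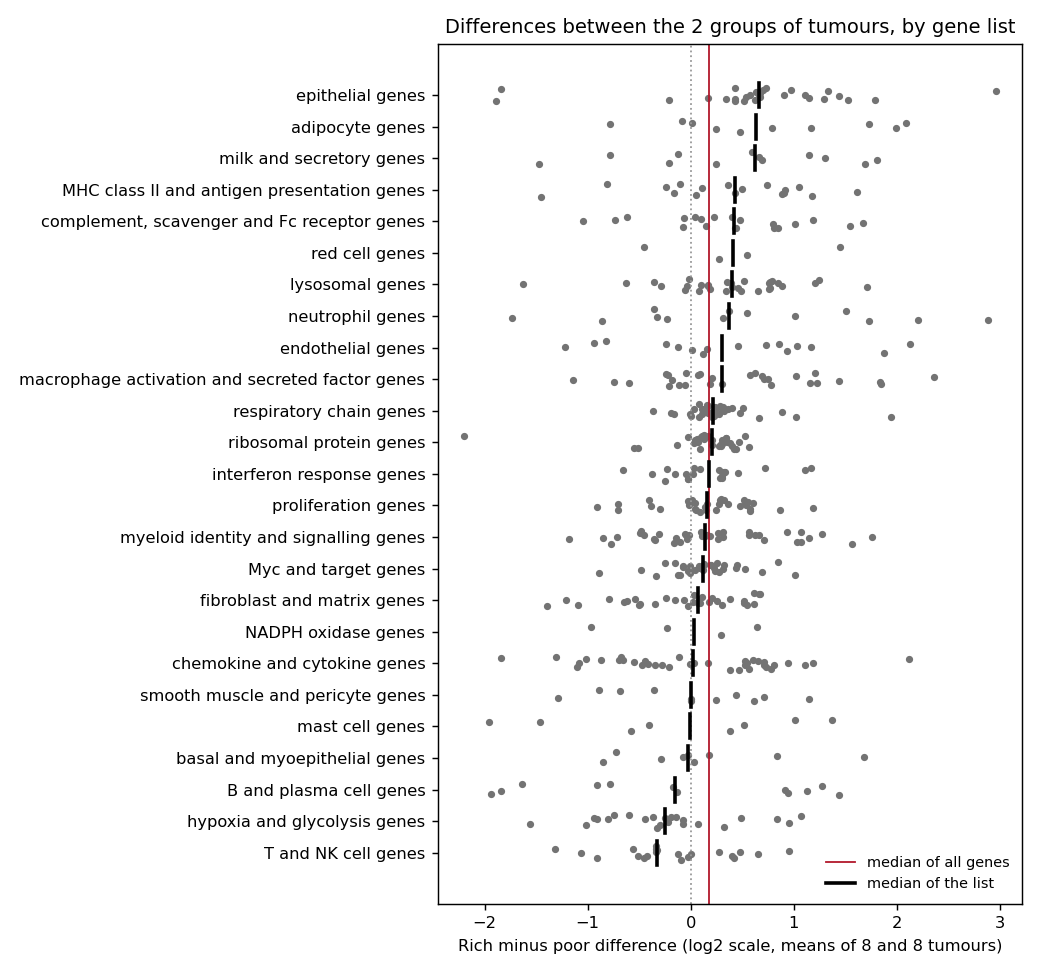
Macrophage-rich minus macrophage-poor difference (log2, horizontal axis) of every measured gene in 25 gene lists (vertical axis), sorted by the median of the list. Each point is a gene, black bars are list medians and the red line is the median of all genes, 0.18; epithelial genes lie farthest to the right with a median of 0.66 and T and NK cell genes farthest to the left with -0.33.

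Of 17 measured MHC class II and antigen presentation genes 12 had a positive difference, 3 of at least 1 and 1 of at most -1, with a median of 0.43. H2-Ab1, the beta chain of the class II molecule I-A, had levels of -0.25, 0.59 and 2.72 (lowest, median and highest) in the 8 macrophage-rich tumours and of -3.59, -0.46 and 1.96 in the 7 macrophage-poor tumours with a value. Poor tumour 660 lay above all rich tumours but 669, and the other 6 measured poor tumours lay below all rich tumours but 662. The difference of H2-Ab1 was 1.62 over both arrays, and limma gave 1.79 ± 0.47 (SE) on the second arrays, adjusted p = 0.525, and 0.68 ± 1.00 (SE) on the first arrays, adjusted p = 0.946.

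Cd74, the invariant chain that guides class II molecules to the lysosome, had levels of -2.32, -1.64 and 1.10 (lowest, median and highest) in the 8 macrophage-rich tumours and of -3.45, -2.56 and -0.53 in the 8 macrophage-poor tumours with a value. Poor tumour 670 lay above 7 of the rich tumours, and the other 7 poor tumours lay below all of them. The difference of Cd74 was 1.18 over both arrays, and limma gave 1.01 ± 0.63 (SE) on the second arrays, adjusted p = 0.79, and 0.05 ± 0.59 (SE) on the first arrays, adjusted p = 0.992. H2-Aa, the alpha chain, differed by 1.05 but by -0.65 within slide run 2, and H2-DMa, which loads peptides, had a difference of -1.45 that was 0.60 within slide run 3.

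Interferon response genes had a median difference of 0.18 with 14 of 22 positive. Without tumours 638 to 643, which left 3 rich tumours against 8 poor, their median was 1.13, against 0.18 for all genes in that setting. On the other array 9 of 20 were negative in each fit and 3 positive, against 31.9% and 31.5% of all genes. Ifi35, an interferon-induced protein, differed by 1.17, with levels of 0.69 to 2.28 in the rich tumours and of 0.34 to 1.50 in 7 of the 8 poor ones, while poor tumour 656 stood at -2.70, and its difference was 0.73 without that tumour. Ifit2, Gbp3 and Ifit3 differed by 1.11, 0.72 and -0.66, with 0.21 for Gbp3 without rich tumour 669 and -1.06 for Ifit3 without poor tumour 667. The list's score, the mean level of its members, ran from -0.20 to 1.93 in rich and from -1.08 to 1.06 in poor tumours.

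Chemokine and cytokine genes were about balanced, with 20 of 38 positive, 3 of at least 1, 5 of at most -1 and a median of 0.03. Cxcl16, a membrane-bound chemokine and scavenger receptor of macrophages, had levels of 0.69, 1.77 and 2.54 (lowest, median and highest) in the 8 macrophage-rich tumours and of -6.06, 1.00 and 1.49 in the 7 macrophage-poor tumours with a value. Poor tumour 663, at -6.06, stood far below the rest, and the other 6 poor tumours with a value lay between -1.33 and 1.49, so the difference was 1.18 without it. The difference of Cxcl16 was 2.12 over both arrays, and limma gave 1.79 ± 0.99 (SE) on the second arrays, adjusted p = 0.763, with too few values on the first arrays. Il1a, an inflammatory cytokine, differed by -1.84, with levels of -0.48 to 1.06 in 6 rich and of 0.53 to 3.38 in 6 poor tumours, and Tnf differed by -1.30, but by 2.28 within slide run 3, 1.85 on the second arrays alone and -0.68 without poor tumour 664.

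Among macrophage activation and secreted factor genes 19 of 29 had a positive difference, 8 of at least 1 and 1 of at most -1, with a median of 0.30. Pltp, a phospholipid transfer protein that macrophages secrete, came close to separating the groups, with levels of -1.67, -0.95 and -0.35 (lowest, median and highest) in the 8 macrophage-rich tumours and of -3.79, -2.33 and -1.08 in the 8 macrophage-poor tumours with a value. Only poor tumour 670 lay within the rich range. The difference of Pltp was 1.44 over both arrays, and limma gave 0.92 ± 0.68 (SE) on the second arrays, adjusted p = 0.836, and 0.63 ± 0.36 (SE) on the first arrays, adjusted p = 0.902.

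Arg1, the arginase of alternatively activated macrophages, had levels of 1.35, 3.51 and 6.19 (lowest, median and highest) in the 7 macrophage-rich tumours and of -1.53, 1.05 and 8.18 in the 8 macrophage-poor tumours with a value. The highest level of all 15 measured tumours was in poor tumour 656, and the other 7 poor tumours lay at 2.96 or below. The difference of Arg1 was 2.36 over both arrays, and limma gave 0.80 ± 1.25 (SE) on the second arrays, adjusted p = 0.943, with too few values on the first arrays. Abca1, a cholesterol exporter, and Apoc2, an apolipoprotein, differed by 1.85 and 1.83. For Apoc2 poor tumour 660 stood far below the rest at -6.18. The difference of Apoc2 was 0.95 without that tumour, and the one on the second arrays, with the groups as ranked, was -0.14.

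**Figure D4:**
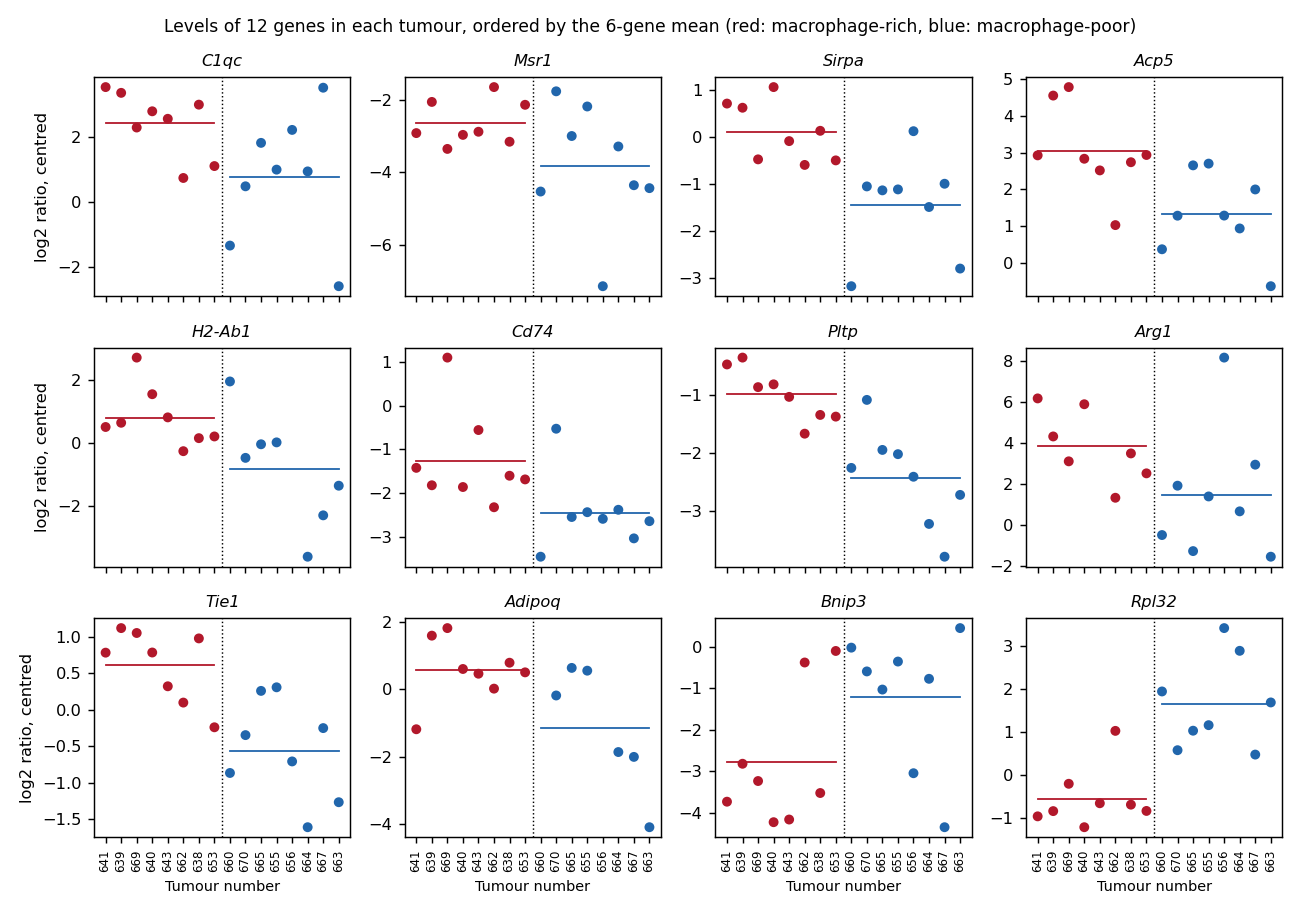
Log2 level (vertical axis of each panel) of 12 genes in each tumour (horizontal axis, ordered by the 6-gene mean), with macrophage-rich tumours in red, macrophage-poor ones in blue and group means as lines. All 12 panels show overlapping groups; in the Pltp panel only poor tumour 670 lies within the rich range, and in the Rpl32 panel only rich tumour 662 lies within the poor range.

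Lists for other leukocytes did not all move with the ranking. Of 21 measured T and NK cell genes 7 had a positive difference, none reached 1 and 2 were at most -1, and the median of -0.33 was the lowest of the 25 lists. Their score ran from -0.72 to 0.36 in rich and from -0.80 to 0.15 in poor tumours. Cd6 and Cd2, receptors of T cells, had differences of -1.32 and -1.06, and Il7r, the receptor for interleukin 7, had one of 0.95. The difference of Cd6 was -0.67 without rich tumour 643 and -0.76 without poor tumour 664, that of Cd2 -0.31 without poor tumour 656, and that of Il7r 0.61 without the latter. Without tumours 638 to 643 the median of the list was -0.01. Few of these genes were measured on enough arrays to be tested, 5 on the second and 15 on the first.

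B and plasma cell genes had 5 of 12 positive, 3 of at least 1 and 3 of at most -1, with a median of -0.15. Cr2, a complement receptor of B cells and follicular dendritic cells, was the only member with groups apart, and it had levels of -4.59 to 0.04 in 7 rich tumours and of 0.10 to 0.90 in 5 poor ones. It was not measured often enough for a test on either array set. Ms4a1, which encodes CD20, and Tnfrsf13b, the receptor TACI, differed by -1.84 and -1.64, and Igha, the heavy chain of IgA, by 1.44. The difference of Ms4a1 was -0.96 without poor tumour 667 and that of Igha 0.85 without rich tumour 643. The score of the B cell list ran from -1.69 to -0.41 in rich and from -2.35 to 0.43 in poor tumours.

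Neutrophil genes had 8 of 13 positive, 5 of at least 1 and 1 of at most -1, with a median of 0.37. Ltf, which encodes lactoferrin of neutrophil granules and of milk, had levels of 2.40, 3.80 and 7.13 (lowest, median and highest) in the 8 macrophage-rich tumours and of -3.74, 1.15 and 8.40 in the 8 macrophage-poor tumours with a value. Poor tumour 667 held the highest level. Prtn3 and Elane, proteases of neutrophil granules, differed by 2.20 and 1.74, whereas S100a8, a calcium-binding protein of neutrophils, differed by -1.73, but by 1.20 within slide run 2 and by 0.33 without tumours 638 to 643. Without poor tumour 663, whose level was -6.30, the difference of Elane was 0.73. On the second arrays limma gave Prtn3 a difference of 1.87 ± 0.74 (SE) and an adjusted p of 0.702. The 8 mast cell genes had a median of -0.01, with Cma1 and Hdc at -1.96 and -1.46 and Tpsb2 and Kit at 1.37 and 1.01, of which Tpsb2 was at 0.79 without poor tumour 663. Scores of the neutrophil list, 0.66 to 1.48 in rich tumours, lay within the range of the poor ones, -1.25 to 2.82.

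The stromal lists differed among themselves. Of 33 fibroblast and matrix genes 19 had a positive difference, none of at least 1 and 3 of at most -1, with a median of 0.07, and the score of -2.81 to -1.49 in rich tumours lay close to the -2.64 to -1.18 of poor ones. Lum and Fbln1, matrix proteins, differed by -1.40 and -1.21, with -0.86 for Lum without rich tumour 639 and -0.60 for Fbln1 without poor tumour 667. Thy1, a surface protein of fibroblasts and T cells, differed by -1.09, but its 2 probes gave 0.16 and -1.04. Of 11 smooth muscle and pericyte genes 7 were positive, with a median of 0.00, Tpm2 at -1.28 (-0.85 without rich tumour 640) and Rgs5 at 1.15.

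Endothelial genes had 11 of 16 positive, 4 of at least 1 and 1 of at most -1, with a median of 0.31. Tie1, an endothelial receptor kinase, had levels of -0.24, 0.78 and 1.12 (lowest, median and highest) in the 8 macrophage-rich tumours and of -1.61, -0.53 and 0.31 in the 8 macrophage-poor tumours with a value. Poor tumours 655 and 665 lay within the rich range, and rich tumours 653 and 662 within the poor one. The difference of Tie1 was 1.17 over both arrays, and limma gave 0.84 ± 0.61 (SE) on the second arrays, adjusted p = 0.83, and 0.16 ± 0.46 (SE) on the first arrays, adjusted p = 0.972. Cdh5, the cadherin of endothelial junctions, and Esam, an adhesion molecule there, differed by 2.13 and 1.88 over fewer tumours, and Eng, a co-receptor for TGF-beta, by -1.22. The difference of Cdh5 was 0.95 without poor tumour 663, whose level was -6.54, and that of Eng -0.77 without poor tumour 656.

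Adipocyte genes had the second highest median of the 25 lists, 0.63, with 8 of 10 positive and 4 of at least 1. Cidea, a lipid droplet protein of brown fat, had levels of 0.48, 1.31 and 2.78 (lowest, median and highest) in the 8 macrophage-rich tumours and of -1.88, -0.69 and 0.99 in the 7 macrophage-poor tumours with a value. Poor tumour 665 lay within the lower part of the rich range, and the other measured poor tumours lay below all rich ones. The difference of Cidea was 2.00 over both arrays, and limma gave 2.33 ± 0.58 (SE) on the second arrays, adjusted p = 0.522, with too few values on the first arrays. Fabp4, a fatty acid carrier of adipocytes that macrophages also make, Adipoq, which encodes adiponectin, and Pparg, the regulator of adipocyte differentiation, differed by 2.09, 1.73 and 1.17. The difference of Adipoq was 1.15 without poor tumour 663, and that of Pparg turned to -1.41 with the top value kept. The score of the adipocyte list was 0.27 to 1.02 in rich tumours and -1.12 to 0.48 in poor ones. Whether fat in the sampled tissue had a part in the differences was not tested.

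The 4 measured red cell genes gave no common direction, with Hba-a1, an alpha globin, at -0.46 and Slc4a1, the anion exchanger of red cells, at 1.45. Hba-a1 was also used to turn the arrays, and its difference was -0.24 without poor tumour 656 and -0.21 without rich tumour 662. Its groups overlapped over most of their range. The list's score ran from 0.38 to 1.82 in rich and from -0.59 to 2.36 in poor tumours.

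Epithelial genes had the highest median difference of the 25 lists, 0.66, with 25 of 28 positive, 8 of at least 1 and 2 of at most -1. Their score was 1.68 to 2.61 in rich tumours and 0.95 to 1.98 in poor ones, so it was above 0 in all 16 tumours, and the groups overlapped. On the other array the medians were 0.48 over 23 genes on the second arrays and 0.25 over 17 on the first. Ocln, a tight junction protein, and Spint1, an inhibitor of epithelial proteases, differed by 2.96 and 1.78, and Cdh1, which encodes E-cadherin, and Krt19, a luminal keratin, by -1.89 and -1.84. The direction of Ocln turned, to -0.15 on the first arrays alone and to -2.83 with the top value kept, and the difference of Spint1 was 1.15 without rich tumour 669. Without tumours 638 to 643 the list's median was 0.32.

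The epithelial genes with negative differences had wide ranges. Krt19 had levels of -3.60, 0.07 and 2.27 (lowest, median and highest) in the 8 macrophage-rich tumours and of -2.37, 1.76 and 3.00 in the 7 macrophage-poor tumours with a value. Rich tumours 638, 643 and 669 had low levels, as had poor tumour 656. The difference of Krt19 was -1.84 over both arrays, and limma gave -1.38 ± 0.81 (SE) on the second arrays, adjusted p = 0.775, and -0.73 ± 1.02 (SE) on the first arrays, adjusted p = 0.945. Cdh1 was measured in 6 tumours of each group, with levels of 2.11 to 4.60 in the rich and of 3.56 to 7.53 in the poor tumours.

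Milk and secretory genes had 8 of 12 positive, 4 of at least 1 and 1 of at most -1, with a median of 0.63 that became -0.03 without tumours 638 to 643. Wap, the whey acidic protein, had levels of 3.22, 3.60 and 8.11 (lowest, median and highest) in the 8 macrophage-rich tumours and of 0.56, 2.15 and 7.37 in the 7 macrophage-poor tumours with a value. Levels above 6 were found in rich tumours 638, 643 and 669 and in poor tumour 667. The difference of Wap was 1.81 over both arrays, and limma gave 0.86 ± 0.99 (SE) on the second arrays, adjusted p = 0.91, with too few values on the first arrays. Lpo, a peroxidase of milk, differed by 1.30, although poor tumour 667 had the highest level at 9.09 and the difference was 2.27 without it, and Glycam1, a mucin of milk, differed by -1.47. Of 9 basal and myoepithelial genes 4 were positive, with a median of -0.02 and Sfn, a 14-3-3 protein of keratinocytes, at 1.68.

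Lists of growth and metabolism had medians near that of all genes. Proliferation genes had 24 of 33 positive with a median of 0.16. On the other array 10 of 29 were negative in each fit and 5 positive, against 31.9% and 31.5% of all genes tested in both fits. Kif11, a motor of the mitotic spindle, differed by -0.91, and limma gave -0.93 ± 0.49 (SE) on the second arrays and -0.77 ± 0.39 (SE) on the first, with adjusted p-values of 0.741 and 0.902. Myc and its targets had 21 of 33 positive with a median of 0.12, and Nme1, a nucleoside diphosphate kinase, differed by 0.85. Respiratory chain genes had 34 of 38 positive with a median of 0.22. Of these, 13 of 37 were positive in each fit on the other array and 9 negative, where the shares over all genes were 31.5% and 31.9%.

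Hypoxia and glycolysis genes had 6 of 23 positive and a median of -0.25. Bnip3, a mitophagy receptor induced by low oxygen, had levels of -4.23, -3.38 and -0.10 (lowest, median and highest) in the 8 macrophage-rich tumours and of -4.35, -0.68 and 0.45 in the 8 macrophage-poor tumours with a value. The 5 tumours 638 to 643 and tumour 669 lay at -2.82 or below, with poor tumours 656 and 667, and the 8 other tumours lay at -1.03 or above. The difference of Bnip3 was -1.56 over both arrays, and limma gave -1.99 ± 0.86 (SE) on the second arrays, adjusted p = 0.709, and -0.90 ± 0.70 (SE) on the first arrays, adjusted p = 0.917. Without tumours 638 to 643 the difference of Bnip3 was -0.02 and the median of the list 0.23.

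Ribosomal protein genes had 28 of 33 positive with a median of 0.21, which turned to -0.17 without tumours 638 to 643 and to -0.03 on the second arrays alone, and a single member stood far from the rest. The probe named Rpl32, a protein of the large ribosomal subunit, had levels of -1.22, -0.76 and 1.03 (lowest, median and highest) in the 8 macrophage-rich tumours and of 0.48, 1.43 and 3.42 in the 8 macrophage-poor tumours with a value. Only rich tumour 662 lay within the poor range. The difference of Rpl32 was -2.20 over both arrays, and limma gave -1.42 ± 0.63 (SE) on the second arrays, adjusted p = 0.715, and -2.09 ± 0.59 (SE) on the first arrays, adjusted p = 0.902. The difference was -1.94 within slide run 2, -1.97 within run 3 and -1.65 without tumours 638 to 643. The other 32 members lay between -0.55 and 0.57. The probe's sequence was not analysed here, so that it measures Rpl32 RNA rests on the platform annotation alone.

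In both fits, 11 of 7894 genes (0.139%) had a positive and 43 (0.545%) a negative difference at an unadjusted p under 0.05, and none of these passed adjustment in limma. The genes named from this set were singled out after their values were seen. Among those with positive differences were Ndufs4, a subunit of respiratory complex I, with 2.00 over both arrays, Lbp, which carries bacterial lipopolysaccharide to its receptor, with 1.80, Tyk2, a kinase of cytokine receptors, with 1.57, and Mthfs, an enzyme of folate metabolism, with 1.65. Among those with negative differences were Tnfrsf11a, the receptor RANK, with -1.10, Cxcr4, the receptor for Cxcl12, with -0.87, and Ncl, the nucleolar protein nucleolin, with -0.89. Within slide run 2 the differences of Tnfrsf11a and Cxcr4 turned to 0.26 and 0.70, and without tumours 638 to 643 they were -0.48 and -0.17. The other genes named here kept their sign in both settings. The 2 probes of Ncl gave -1.75 and -0.03, so they did not agree.

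The negative set also held the small nuclear and nucleolar RNA genes Rnu11, Rnu3a, Rnu3b4, Rnu5g and Snora70. Such RNAs guide splicing and the processing and modification of ribosomal RNA, and they lack the poly(A) tail of messenger RNA. All measured genes that RefSeq types as small nuclear or nucleolar RNA were therefore gathered, a list made after these values were seen and so not tested. Of 13 such genes 12 had a negative difference, 8 of at most -1, and the median was -1.36. Of 11 tested in both fits 9 were negative in each. Over all genes, 8.17% had a difference of at most -1 and 31.9% were negative in each fit. The counts include the 5 genes that prompted the list, which were picked for negative differences. Among the others, Snora15, Rnu6 and Snora68 differed by -1.74, -1.70 and -1.27, and the rest by -0.98 (Snora62) to 0.36 (Snora74a).

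Measured in all 16 tumours were 11 small RNA genes, among them the 5 that prompted the list. Their mean level was -1.10, -0.49 and 0.86 (lowest, median and highest) in the rich tumours and -0.01, 1.34 and 1.89 in the poor ones. Rich tumour 662 lay among the poor tumours, and poor tumour 667 lay nearest to the rich ones. Within slide run 2, with 2 rich and 6 poor tumours, the difference was negative for 11 of 11 genes with a median of -1.16. Within run 3, with 3 rich and 5 poor, the difference was negative for 10 of 11 with a median of -1.47. Without tumours 638 to 643 it was negative for 10 of 11 with a median of -1.21, and without subtraction of array medians for 10 of 11 with a median of -0.93. Rnu11, an RNA of the minor spliceosome, had the largest difference of these genes, -3.54, with -2.44 ± 1.11 (SE) on the second arrays and -2.68 ± 1.02 (SE) on the first.

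**Figure D5:**
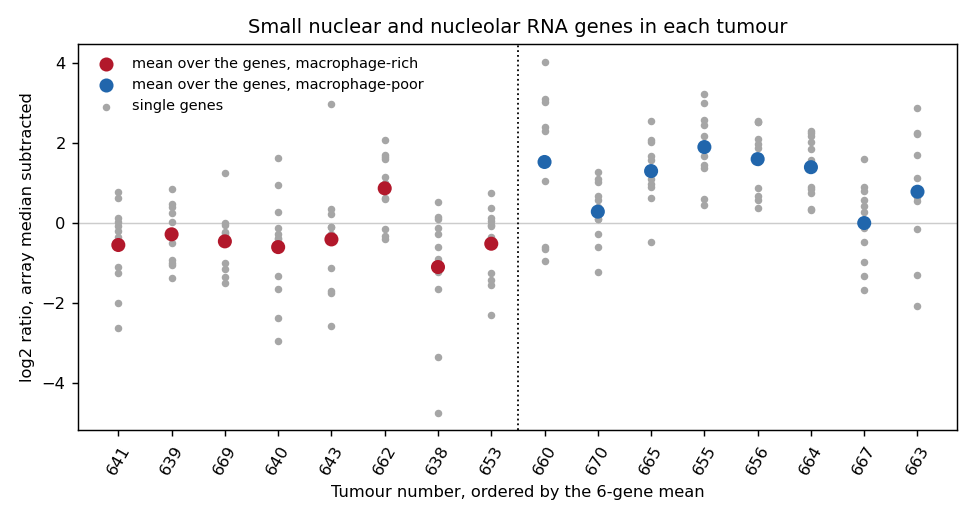
Log2 level (vertical axis) of 11 small nuclear and nucleolar RNA genes in each of the 16 tumours (horizontal axis, ordered by the 6-gene mean): grey points are single genes, and coloured points their mean in macrophage-rich (red) and macrophage-poor (blue) tumours. The means of 7 of the 8 rich tumours lie below those of all 8 poor ones, the lowest of which is -0.01, and rich tumour 662 lies at 0.86.

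For each of the 100 genes named from the lists, the tumour nearest to or deepest in the other group was picked in each group. A pick is made even where the groups do not overlap, so it does not by itself place a tumour among the other group. Rich tumour 662 was picked for 37 genes and rich tumour 653 for 18. The other rich tumours were picked for 2 (tumour 639) to 14 (tumour 641). Poor tumour 667 was picked for 24 genes, and the other poor tumours for 4 (tumour 663) to 16 (tumour 670). Tumours 662 and 653 were also macrophage-poor when ranked on the first arrays alone. Tumour 667 was macrophage-poor on both of its arrays.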

How the data were processed

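Each of 16 tumours was measured on 2 arrays. Per probe, the authors deposited a log2 ratio between the dyes. The scale was read from the values, and neither background correction nor normalization is stated in the sources used here. Of 726515 values, 15512 (2.14%) stood at the repeated top value of 16.61 and were set missing, and 24.1% of cells were blank. An array was multiplied by -1 where the mean of its Krt8, Hba-a1 and Dbi probes was negative, its median was subtracted and the 2 arrays of a tumour were averaged. Of 22800 probes, 16874 had 1 gene symbol in the platform annotation, 134 several and 5792 none, and 16196 were updated through their gene identifier. Probes of a gene were averaged, and 13659 of 15096 genes had a value in at least 12 tumours. Depth per sample is the number of measured probes, and the number of tumours limits the precision.

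Differences between the groups as ranked are descriptions with no test. Tests used limma 3.58.1 in R 4.3.3 (linear model, empirical Bayes, two-sided, Benjamini-Hochberg adjustment over all genes tested, threshold 0.05), with groups ranked on one array of each tumour and values from the other, and the scripts were tested on simulated data. The labels give each tumour its own number but do not say that each came from another mouse, so p-values measure the spread between these samples. Named genes were the ranking genes, any gene past the adjusted threshold (none was) and, in each list, the up to 4 members with the largest absolute difference. The ranking genes, the grouping and the gene lists were chosen with earlier results of these data known. Alternatives covered centring, quantile normalization, the top value, the filter on missing values, slide run, single tumours, the summary and cut of the ranking, orientation and single probes.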

Additional observations from a re-analysis of the deposited data

Results flagged for a closer look

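For each named gene, the highest and the lowest tumour of a group were set against the rest of the group, and a tumour was picked where its gap to the next one took up most of the group's range by Dixon's criterion at 95%. This picked 28 of 208 groups tested, where chance flags about 1 in 20 groups. The rate of 1 in 20 holds for genes chosen without regard to their values, whereas most of these were named for a large difference. A single outlying tumour can add to such a difference, so no excess can be read from the count. Each log2 level is given against the range of the other tumours of its group, and no explanation was tested.

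Macrophage-rich tumour 638 stood apart for Fbln1 at -4.57 against -2.73 to -1.43. Macrophage-rich tumour 639 stood apart for Tnf at -4.56 against -1.46 to 0.90, Apoc2 at 3.97 against -0.50 to 1.46. Macrophage-rich tumour 641 stood apart for Abca1 at -1.73 against -0.03 to 0.89, Col5a1 at -3.82 against -2.88 to -2.13, Aldoc at -2.05 against -0.30 to 1.21. Macrophage-rich tumour 643 stood apart for Cd6 at -5.03 against -1.14 to 1.51, Igha at 4.83 against -1.53 to 1.35. Macrophage-rich tumour 662 stood apart for Ncl at 0.98 against -0.14 to 0.21, Rpl32 at 1.03 against -1.22 to -0.20, Rwdd2b at 3.35 against -0.30 to 1.29. Macrophage-rich tumour 669 stood apart for H2-DMa at 2.45 against -2.12 to -0.24, Cr2 at -4.59 against -1.79 to 0.04.

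Macrophage-poor tumour 656 stood apart for Clec4d at 2.42 against -1.80 to -0.06, Ifi35 at -2.70 against 0.34 to 1.50, Arg1 at 8.18 against -1.53 to 2.96. Macrophage-poor tumour 660 stood apart for Apoc2 at -6.18 against -1.31 to 1.13. Macrophage-poor tumour 663 stood apart for Cxcl16 at -6.06 against -1.33 to 1.49, Elane at -6.30 against -1.71 to 0.55, Cdh5 at -6.54 against -0.35 to 2.86. Macrophage-poor tumour 664 stood apart for Lamb3 at -1.09 against 1.12 to 1.62, Pcna at -4.62 against -0.27 to 1.16. Macrophage-poor tumour 667 stood apart for Ifit3 at -2.49 against -0.14 to 1.12, Fbln1 at 3.14 against -3.80 to -0.57, Lpo at 9.09 against 0.59 to 1.86, Kif11 at -1.50 against 0.04 to 1.14. Macrophage-poor tumour 670 stood apart for Cd74 at -0.53 against -3.45 to -2.38, Cenpa at -0.14 against -1.62 to -1.07.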

How the results depend on the processing

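No paired analysis was possible because no label pairs a macrophage-rich tumour with a macrophage-poor one, and the array numbers within a tumour follow accession order only. Calls in limma stayed at 0 on the first arrays under all alternatives run. On the second arrays there were 1 with quantile normalization (Prps1l1), 13 in the upper 6 against the lower 6 tumours, 2 with single probes, and 0 to 2 with each tumour left out (2 without tumour 664), and 0 under the other alternatives. Ranked and tested on the same arrays, limma called 133 genes with a value on all 32 arrays, a setting added after seeing the data.

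Counts of described genes moved with the choices. Differences of at least 1 and of at most -1 numbered 462 and 198 with a value in all 16 tumours, 2982 and 586 without centring and 2412 and 1959 with the top value kept. The number of genes was 13653 without centring, as for the 1274 and 1116 with the groups as ranked. It was lower with a value in all 16 tumours and higher with the top value kept. Those counts are therefore not directly comparable with 1274 and 1116. On the first arrays alone there were 690 and 612 of 10349, and on the second alone 1481 and 392 of 8360. Genes with groups apart, higher and lower, numbered 53 and 0 without centring, 17 and 1 with quantile normalization, 13 and 10 with the median of the ranking genes, and 185 and 27 in the upper 6 against the lower 6. They numbered 159 and 54 without tumours 638 to 643, and 300 and 163 in the 10 tumours of the same group on both arrays, both added after seeing the data. These last settings compared 3 rich with 8 poor tumours and 5 with 5, and the upper and lower 6 compared 6 with 6. Smaller groups fall apart more often by chance, and the number of genes also differed. The rise from 33 and 5 with 8 against 8 tumours can therefore not be read as cleaner separation. Genes with groups apart, higher, numbered 5 of 10349 on the first arrays alone and 34 of 8360 on the second alone. The lower ones numbered 0 on the second alone, 1 with a value in all 16 tumours and 8 with at least 8. With each tumour left out, differences of at least 1 ranged from 1025 to 1437, of at most -1 from 828 to 1108, groups apart higher from 31 to 85 and lower from 3 to 18. The higher count was 64 without tumour 643, 65 without 662, 53 without 667 and 85 without 670. The lower count was 9 without 643, 18 without 662, 8 without 664 and 3 without each of 638, 639, 641 and 653. Leaving out a tumour also made its group smaller and changed the number of genes, so the same limit holds for these counts.

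Of 1350 differences of named genes under other settings, 64 had the other sign, 20 of them within slide run 2, 12 within run 3 and 7 without tumours 638 to 643. With each tumour left out 2 of 1664 had it, both of Cybb, and 40 of 104 named genes moved by over 1.5 times or changed sign without some tumour. The cause was not tested. The log2 differences that turned are listed for the 28 cases with a difference of at least 1 in size as ranked, and the other 36 were smaller. Within slide run 2 they were Fcgr3 -0.002, Plek 0.46, H2-Aa -0.65, Cxcl14 -0.38, S100a8 1.20, Kit -0.062, Fbln1 0.46, Tpm2 0.51, Krt19 0.34, Wfdc18 -1.02, Odc1 -0.10, Ndufb9 -0.055, Bnip3 0.48, Ddit4 0.40. On the second arrays alone they were Tpp1 0.13, Tnf 1.85, Apoc2 -0.14. Within slide run 3 they were H2-DMa 0.60, Ifit2 -0.27, Tnf 2.28, Cd2 0.20, Eng 0.27. With the median of the ranking genes they were Cd6 0.78. Without tumours 638 to 643 they were S100a8 0.33. On the first arrays alone they were Lum 0.19, Ocln -0.15. With the top value kept they were Pparg -1.41, Ocln -2.83.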

Other observations

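Outside the lists, the genes whose groups did not overlap had mixed functions, and they are given because they met that description, with no test. Adam9, a membrane metalloprotease that sheds growth factors, had levels of -1.01 to -0.51 in the macrophage-rich tumours and of -4.08 to -1.25 in the macrophage-poor ones. Its difference was 1.72 over both arrays, and limma gave 0.85 ± 0.64 (SE) on the second arrays, adjusted p = 0.838, and 1.24 ± 0.43 (SE) on the first, adjusted p = 0.902. Sqstm1, the autophagy receptor p62, differed by 0.59, Smad4, the shared mediator of TGF-beta signals, by 0.96, and Tbk1, a kinase of innate immune signalling, by 0.96. In limma's fits these were -0.01 ± 0.27, 0.72 ± 0.39 and 0.54 ± 0.50 (SE) on the second arrays. On the first arrays they were 0.42 ± 0.29, 0.41 ± 0.31 and 0.21 ± 0.26 (SE). Clcn3, a chloride transporter of endosomes, differed by 0.94 and Dpp7, a lysosomal peptidase, by 1.06. In all, the rich group was higher in 33 genes (0.242%) and lower in 5 (0.0366%), and those named above are all higher. The largest positive differences were those of Ppp1r1c and Hook1, 3.09 and 2.80, and the largest negative ones those of Ptgfr and Mmp23, -2.87 and -2.47. Ppp1r1c and Ptgfr had values in 7 rich and 5 poor tumours, Mmp23 in 8 and 5 and Hook1 in 8 and 6. The poor levels of Hook1 ran from -6.26 to 1.76 with a median of 1.03. On the second arrays limma gave Hook1 1.45 ± 0.45 (SE), adjusted p = 0.588. Ppp1r1c, Ptgfr and Mmp23 were not measured often enough for a test on either array set. These genes were singled out after their values were seen, and the ranking was made on the same arrays.

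The probe named Vmn1r30, a pheromone receptor of the vomeronasal organ, had a difference of -4.43 over both arrays, -4.06 within slide run 2 and -3.64 within run 3. Its levels ran from -4.58 to 1.62 in the macrophage-rich and from 0.92 to 5.84 in the macrophage-poor tumours. Limma gave -3.14 ± 1.57 (SE) on the second arrays, adjusted p = 0.736, and -3.62 ± 1.00 (SE) on the first, adjusted p = 0.902. The probe named Rwdd2b had a difference of -2.54, with levels of -0.30 to 3.35 in the macrophage-rich and of 1.12 to 4.53 in the macrophage-poor tumours. Rich tumours 662 and 669 lay above poor tumour 667, the lowest of the poor tumours for Rwdd2b. The sequences of both probes were not analysed here, so that they measure the RNAs they are named for rests on the platform annotation alone.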
